A study of Mus musculus with 8 samples.

Results

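The genes described here are 37 protein-coding mouse genes of glucose uptake, glycolysis, pyruvate entry into mitochondria and glycogen metabolism, chosen by name from the gene symbols of the deposited table. The 37 symbols matched 38 of 23045 rows, because Aldoa has a second row with values of 0 to 2 that was not tested, and 37 of these rows were among the 20313 genes tested. Heart RNA was compared between 4 Mettl3 KO hearts (genotype Mettl3lox/lox:alphaMHC-MerCreMerpos) and 4 WT hearts (genotype Mettl3lox/lox). The question was what changes when METTL3, the catalytic subunit of the m6A RNA methyltransferase, is deleted in adult heart muscle cells. Both groups carried the floxed alleles and, per the study's methods, came from mice aged 10 to 16 weeks that received tamoxifen at 100 µg per g body weight on 7 days. The alphaMHC promoter drives the inducible Cre in cardiomyocytes, so that other heart cells keep the gene, and the controls lack the transgene, so that effects of the Cre and of the deletion cannot be told apart. Nothing in the labels says more about how the 4 hearts of a group relate, and p-values measure the spread between these libraries.

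Heart muscle takes up glucose through GLUT4 and GLUT1, traps it as glucose 6-phosphate by hexokinase, and either stores it as glycogen or breaks it down to pyruvate. Pyruvate becomes lactate in the cytosol, or it enters mitochondria and is turned into acetyl-CoA by the pyruvate dehydrogenase complex, which kinases switch off and phosphatases switch on. The adult heart burns mainly fatty acids, and these switches set how much glucose carbon is oxidised.

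The labels were checked first. Mettl3 had 105, 133, 118 and 107 normalized read counts in WT 1 to 4 and 74, 68, 69 and 78 in Mettl3 KO 1 to 4, so every KO library lay below every WT library. Its KO mean was 62.4% of the WT mean (log2 fold change -0.67, SE 0.10, limma adjusted p = 0.000184). Library totals lay between 2839589 and 2916986 normalized counts, and 3 reads were worth 2.78 to 3.33 normalized counts. Of 8 cardiomyocyte markers 1, Ryr2, passed the test, and it was lower. Of 8 fibroblast markers 7 were higher, with summed values of 3648 to 4172 in WT and 4711 to 5671 in KO. Of 5 atrial genes all 5 were higher, with sums of 432, 384, 192 and 429 in WT and 598, 973, 1072 and 1392 in KO, and Bmp10 stood at 0 in 4 WT libraries and KO 1. Of 8 endothelial markers 4 were lower. In heart tissue, fewer cells of a type and less RNA per cell cannot be told apart, and the part of cell composition in the values below was not tested. The study's methods do not say how much atrium the RNA samples held. An atrial covariate, named below for some genes, partly followed genotype, so its part and that of genotype cannot be fully told apart.

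The enzyme and transporter genes of glucose use stayed close to their WT level in the Mettl3 KO hearts. Of the 37 genes 1 was called higher (Hk1) and 1 lower (Gys1), which is 5.41% of them. Over all genes tested 7.91% were called, 4.72% higher and 3.19% lower, so the members' count was near or under the background in either direction. The log2 fold changes of the 37 ran from -0.44 for Pfkfb1 to 0.18 for Hk1 with a median of -0.01, against a median of -0.01 over all genes. The median size of the change was 0.06 for the members and 0.17 for all genes, without regard to level. Most members were abundant, and among genes with a mean of at least 100 the median size was 0.07 for 32 members and 0.09 for 6779 genes, of which 6.25% and 14.9% were called. The groups did not overlap for 5 of the 37 (Hk1, Pdk1, Pdk2, Mpc2 and Gys1), or 13.5%, against 11.5% of all genes.

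The precision of these values is given by their intervals. Of the 35 members that were not called, 30 had a 95% interval of the change that lay within 1.25-fold in both directions. The 5 others were Pfkp, Pfkfb1, Aldoc, Pgam1 and Mpc2. In 6 of the 35 the interval did not include 0, and without adjustment 8 of all 37 members (21.6%) had a limma p under 0.05, near the 20.6% of all genes. By the limma-voom test on the same values, 4 of the 37 (10.8%) were called, against 7.5% of all genes.

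**Figure D1:**
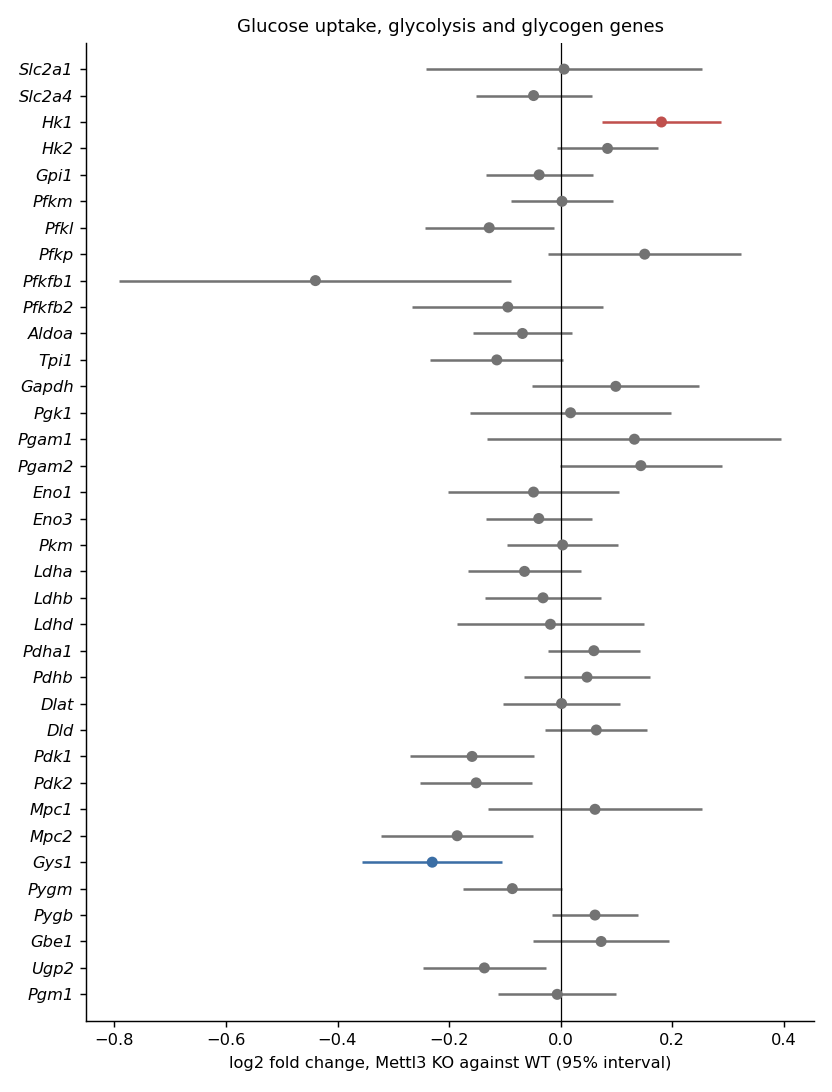
Log2 fold change of each glucose gene in Mettl3 KO against WT hearts (x axis, limma on log2(value + 1), 4 libraries a group) with its 95% interval as a line, ordered along the pathway; red marks the gene called higher, blue the gene called lower, grey the others, and Aldoc is left out for its 0 to 3 counts. The points lie between -0.44 and 0.18, and most lines cross 0.

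The promoters of the called genes are shown because Hk1 and Gys1 are the members on which the count rests, and RefSeq (GRCm38.p6) holds a 300 base window for each, 250 before to 50 after the start. The table gave Hk1 a further start, upstream, whose window held 0 matches to the 3 motifs marked here and is not printed. Capitals mark, on either strand, GGGCGG (the GC box, reverse CCGCCC) in Gys1, and ACGTG and GCGTG (cores of the hypoxia response element, reverse CACGT and CACGC) in Hk1.
Gys1, chr7:45434589-45434888, plus strand: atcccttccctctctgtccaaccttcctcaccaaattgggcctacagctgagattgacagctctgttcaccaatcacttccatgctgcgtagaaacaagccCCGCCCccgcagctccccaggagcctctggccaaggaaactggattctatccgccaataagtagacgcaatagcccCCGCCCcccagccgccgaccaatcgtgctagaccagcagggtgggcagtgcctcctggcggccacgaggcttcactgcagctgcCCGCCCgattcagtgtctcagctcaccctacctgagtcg
Hk1, chr10:62340372-62340671, minus strand: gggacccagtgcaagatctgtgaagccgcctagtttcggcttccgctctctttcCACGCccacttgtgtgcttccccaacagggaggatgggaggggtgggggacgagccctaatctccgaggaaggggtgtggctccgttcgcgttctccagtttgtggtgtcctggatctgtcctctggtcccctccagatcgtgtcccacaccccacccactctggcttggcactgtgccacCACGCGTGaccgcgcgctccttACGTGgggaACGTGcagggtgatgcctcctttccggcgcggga

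The Gys1 window held 3 GC boxes, and this Hk1 window held 2 matches to ACGTG and 3 to GCGTG. Among the promoters of the 36 members found in the table, 56 in all, 50.0% held GGGCGG, against 35.7% of the 32851 promoters of the whole table. ACGTG was in 39.3% of the member promoters and 19.6% of all, and GCGTG in 50.0% and 32.4%. CACGTG, the E-box, which contains ACGTG, was in 8.93% and 7.15%, and TATAAA in 5.36% and 13.6%. A match is a run of letters in this window and does not show binding. GGACT, a form of the m6A consensus, occurred at a median of 1.05 per kb in the longest coding transcript of the 37 members and at 1.05 per kb over 14384 tested genes. It occurred 11 times in the 4278 nt of Hk1 and 5 times in the 3678 nt of Gys1. Whether these sites carry m6A was not measured here.

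Uptake and trapping of glucose come first in the pathway. Slc2a4, the insulin-responsive carrier GLUT4 of muscle, had 614, 599, 650 and 587 normalized counts in WT and 621, 555, 599 and 594 in KO. Slc2a1, the basal carrier GLUT1, had 75, 93, 78 and 65 in WT and 70, 76, 76 and 89 in KO. Both groups overlapped for both carriers, with log2 fold changes of -0.05 (limma adjusted p = 0.666) and 0.01 (limma adjusted p = 0.991).

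Hk1, the hexokinase found in most tissues, lies at chr10:62104634-62215687 on the minus strand in mm39. It had 716, 655, 744 and 721 normalized counts in WT and 860, 773, 830 and 753 in KO, and the lowest KO library exceeded the highest WT library. The KO mean of 804 ± 49.6 (SD, n = 4) was 113% of the WT mean of 709 ± 38.0 (SD, n = 4). On the log2 scale this was a change of 0.18 (SE 0.05, 95% interval 0.07 to 0.29, limma adjusted p = 0.0325). The rise was lost at the threshold without WT 1, WT 2, WT 4, KO 1, KO 2 or KO 3 in turn, with adjusted p up to 0.137 without WT 2, and limma without a variance trend gave 0.268. Across 20 alternatives the change stayed between 0.14 and 0.31, and with the atrial genes as a covariate it was 0.31.

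Hk2, the insulin-regulated hexokinase of muscle, had 1296, 1351, 1379 and 1278 normalized counts in WT and 1499, 1326, 1454 and 1348 in KO. The groups overlapped, with a log2 fold change of 0.08 (95% interval -0.01 to 0.17, limma adjusted p = 0.29). With the atrial covariate it was 0.20 with a limma adjusted p of 0.0497. Per length, Hk1 stood at 0.374 of Hk2 in WT with the union of annotated exons as the length, and at 0.689 with the longest coding transcript.

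**Figure D2:**
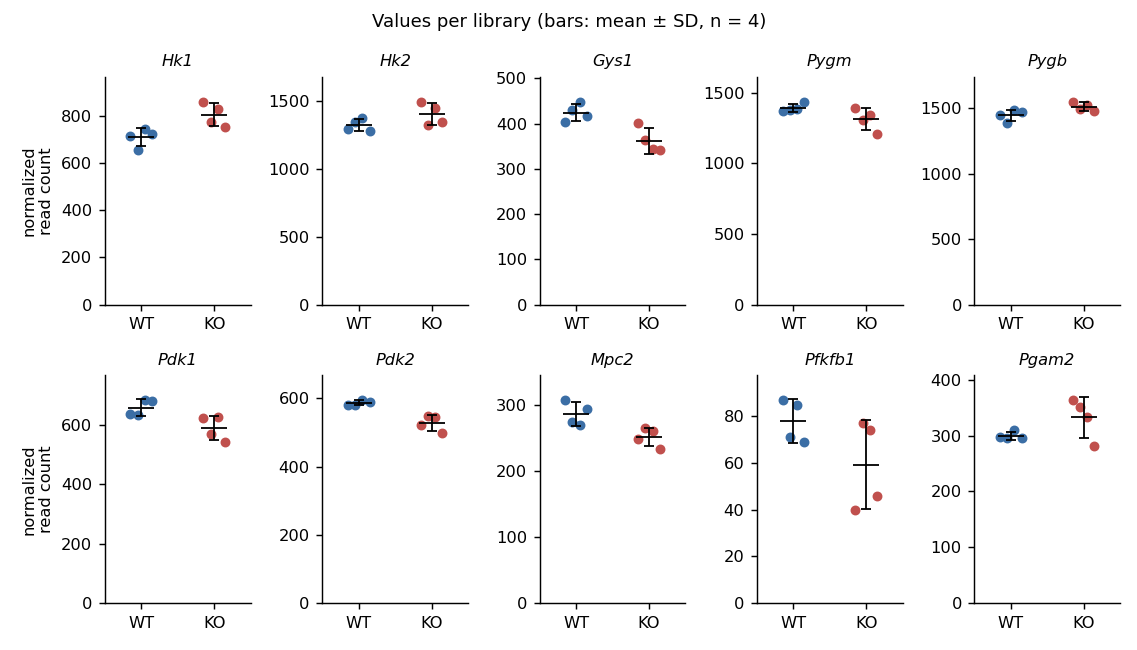
Normalized read counts (y axes from 0) of 10 glucose genes in each of 4 WT (blue) and 4 Mettl3 KO (red) libraries, with mean and SD as black bars. Hk1 lies at 655 to 744 in WT and 753 to 860 in KO, and Gys1 at 403 to 449 and 341 to 402.

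The middle steps of glycolysis gave no call. Pfkm, the muscle form of phosphofructokinase, which commits sugar to glycolysis, had 1267, 1199, 1265 and 1257 normalized counts in WT and 1347, 1183, 1276 and 1196 in KO. Pfkl, the liver form, had 388, 384, 399 and 397 in WT and 364, 337, 385 and 350 in KO. Pfkp, the platelet form, had 299, 396, 305 and 378 in WT and 336, 373, 398 and 416 in KO. The highest Pfkl value in KO was above the lowest in WT, and the log2 fold changes were 0.00 for Pfkm, -0.13 for Pfkl and 0.15 for Pfkp (limma adjusted p = 0.99, 0.186 and 0.328).

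Fructose 2,6-bisphosphate, which activates phosphofructokinase, is made by the Pfkfb enzymes. Pfkfb1 had 87, 71, 85 and 69 normalized counts in WT and 40, 77, 74 and 46 in KO, with KO 1 and KO 4 low and the other two within the WT range. Its log2 fold change of -0.44 was the farthest from 0 among the members (95% interval -0.79 to -0.09, limma adjusted p = 0.125). Without KO 1 it was -0.27 (limma adjusted p = 0.338). Pfkfb2, the heart form, had 242, 290, 324 and 276 in WT and 251, 298, 237 and 272 in KO, with overlapping groups and a limma adjusted p of 0.588.

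Gpi1 and the enzymes from aldolase to pyruvate kinase had KO means at 92.4% to 111% of WT, leaving out Aldoc. Gpi1, the isomerase, was at 97.3% of its WT mean, Aldoa, the muscle aldolase, at 95.4% and Tpi1, which interconverts the triose phosphates, at 92.4%. Gapdh, the NAD-dependent step, was at 107%, Pgk1, which makes ATP, at 102%, and Pgam1, the brain form of phosphoglycerate mutase, had means of 50.2 normalized counts in WT and 55.0 in KO. Eno1 and Eno3, the ubiquitous and muscle enolases, were at 96.7% and 97.4%, and Pkm, pyruvate kinase, was at 100.4%. Aldoc, the brain aldolase, had 1, 1, 2 and 1 normalized counts in WT and 1, 0, 2 and 3 in KO, which is at or under the level of 3 reads, and no fold is given.

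Pgam2, the muscle phosphoglycerate mutase, had 297, 295, 310 and 296 normalized counts in WT and 364, 351, 334 and 281 in KO, where KO 4 lay below all WT libraries and the other three above. Its log2 fold change was 0.14 (95% interval -0.00 to 0.29, limma adjusted p = 0.249), and without KO 4 it was 0.22 with a limma adjusted p of 0.0389. The authors dropped reads that map to several places, and near copies of Aldoa, Gapdh, Ldha, Ldhb and Mpc1 are in the table, so these genes' values can miss reads. The copy with the most counts was Mpc1-ps, at 7 to 14, and Ldhb-ps reached 5. Further copies, under other names or without a row, were not searched for, so other members' values can miss reads too.

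The fate of pyruvate was the next question. Ldha and Ldhb, the subunits of lactate dehydrogenase, had KO means at 95.6% and 97.9% of WT, and Ldhd, which oxidises D-lactate, was at 98.8%. Mpc1, a subunit of the mitochondrial pyruvate carrier, had 88, 92, 94 and 88 normalized counts in WT and 94, 96, 90 and 98 in KO. Mpc2, its partner, had 308, 274, 270 and 294 in WT and 249, 265, 260 and 233 in KO, and the groups did not overlap. The log2 fold change of Mpc2 was -0.19 (95% interval -0.32 to -0.05), with a limma adjusted p of 0.0917 and no call in any of 20 alternatives.

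The enzyme components of the pyruvate dehydrogenase complex are E1 (Pdha1 and Pdhb), E2 (Dlat) and E3 (Dld). Their KO means were at 104%, 103%, 100.4% and 105% of WT, and the 4 limma adjusted p-values ran from 0.446 to 0.998. Pdk1 and Pdk2 are kinases that switch E1 off. Pdk1 had 635, 634, 684 and 679 normalized counts in WT and 623, 568, 626 and 543 in KO, and Pdk2 had 582, 580, 596 and 590 in WT and 523, 548, 546 and 498 in KO. Every KO library lay below every WT library for each kinase. The log2 fold changes were -0.16 for Pdk1 and -0.15 for Pdk2 (SE 0.05 and 0.05, limma adjusted p = 0.0718 and 0.0564), which missed the threshold. Pdk2 passed it in 3 of 20 alternatives and Pdk1 in 2 of 20. With the atrial covariate the log2 fold change was -0.04 for Pdk1 (limma adjusted p = 0.851) and -0.13 for Pdk2 (limma adjusted p = 0.369).

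Other genes around the complex, among them its regulators, came from a list of 9. Of these 7 were tested, 3 were higher and 0 lower, where 4.72% of all genes were higher. Pdp2, a catalytic subunit of pyruvate dehydrogenase phosphatase (chr8:105318083-105325658, plus strand, mm39), had 262, 268, 253 and 230 normalized counts in WT and 353, 378, 382 and 358 in KO. Pdp1, the calcium-activated catalytic subunit, had 258, 263, 243 and 274 in WT and 386, 353, 325 and 332 in KO. Pdpr, the regulatory subunit, had 553, 560, 616 and 568 in WT and 677, 668, 640 and 645 in KO. No KO library of the 3 phosphatase genes fell within the WT range. KO means were 145%, 134% and 114% of WT for Pdp2, Pdp1 and Pdpr, and their log2 fold changes were 0.54, 0.42 and 0.20. The SEs were 0.06, 0.07 and 0.05, and limma gave adjusted p = 7.00e-06, 0.000184 and 0.0132 in the same order.

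The call of Pdp2 held in 20 of 20 alternatives and that of Pdp1 in 19 of 20, the exception being limma without a variance trend (adjusted p = 0.0511). Pdpr lost it there and without WT 1 (limma adjusted p = 0.0537). The starvation-induced kinase Pdk4 varied widely, at 768, 728, 1103 and 1299 normalized counts in WT and 623, 1227, 1090 and 953 in KO, and its log2 fold change was -0.00 (95% interval -0.33 to 0.33, limma adjusted p = 1). Pdk3, a further kinase named after its values were seen, had 17, 12, 21 and 17 in WT and 27, 29, 25 and 25 in KO. Its groups did not overlap, and its limma adjusted p was 0.0598.

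**Figure D3:**
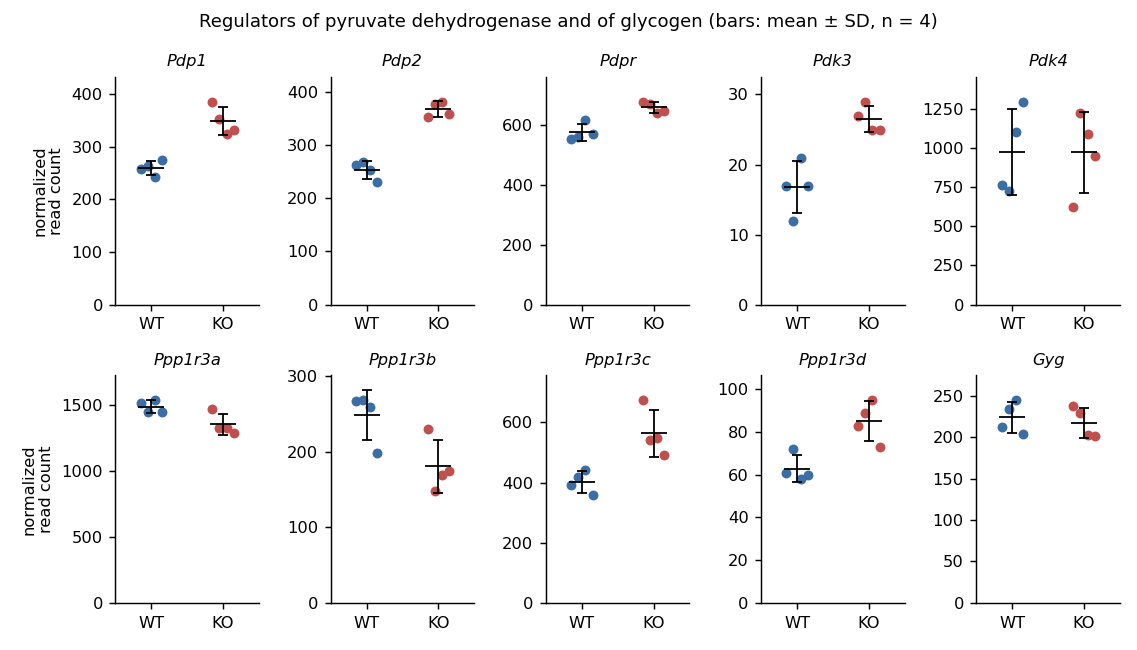
Normalized read counts (y axes from 0) of 5 regulators of pyruvate dehydrogenase (top) and 5 glycogen genes (bottom) in 4 WT (blue) and 4 Mettl3 KO (red) libraries, with mean and SD as black bars. Pdp1 and Pdp2 reach at most 274 in WT and at least 325 in KO, while the groups overlap for Pdk4.

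Glycogen synthesis and breakdown gave the member called lower. Gys1, the muscle glycogen synthase (chr7:45084268-45106043, plus strand, mm39), had 403, 430, 449 and 416 normalized counts in WT and 402, 363, 343 and 341 in KO. KO 1 was a single count under WT 1 and the other 3 KO libraries lay at 363 or less. The KO mean of 362 ± 28.3 (SD, n = 4) was 85.3% of the WT mean of 424.5 ± 19.7 (SD, n = 4). On the log2 scale this was a change of -0.23 (SE 0.06, 95% interval -0.36 to -0.10, limma adjusted p = 0.0199). The call was lost without WT 2, WT 3, KO 2, KO 3 or KO 4 in turn, with adjusted p up to 0.0901 without KO 3, and limma without a variance trend gave 0.188. With the atrial genes as a covariate the log2 fold change was -0.05 (limma adjusted p = 0.818).

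The glycogen phosphorylases release glucose 1-phosphate. Pygm, the muscle form, had 1373, 1378, 1387 and 1439 normalized counts in WT and 1396, 1308, 1344 and 1210 in KO. Pygb, the brain form, had 1446, 1391, 1487 and 1470 in WT and 1552, 1496, 1522 and 1476 in KO. The groups overlapped for each, with log2 fold changes of -0.09 and 0.06 (limma adjusted p = 0.257 and 0.383). Ugp2, which makes UDP-glucose for glycogen, had 760, 714, 789 and 714 in WT and 737, 646, 695 and 632 in KO, with a log2 fold change of -0.14 (limma adjusted p = 0.127). Without KO 1 the change of Ugp2 was -0.18 (limma adjusted p = 0.0333), and with the atrial covariate it turned to 0.02 (limma adjusted p = 0.936). Gbe1, the branching enzyme, and Pgm1, phosphoglucomutase, had KO means at 105% and 99.6% of WT.

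Beyond the members, 24 glycogen genes were tested, of which 4 were higher and 5 lower. The targeting subunits of protein phosphatase 1 bring it to glycogen, where it activates the synthase, and they differed in direction. Ppp1r3c had 393, 420, 443 and 358 normalized counts in WT and 675, 540, 548 and 492 in KO. Ppp1r3d had 61, 72, 58 and 60 in WT and 83, 89, 95 and 73 in KO. The KO libraries were all above the WT libraries in both genes, and the log2 fold changes were 0.48 and 0.43 (limma adjusted p = 0.000334 and 0.0232). Ppp1r3b, the form best known from liver, had 267, 269, 259 and 199 in WT and 231, 148, 169 and 175 in KO, with overlap through WT 4 and a log2 fold change of -0.47 (limma adjusted p = 0.00914). Its change was -0.17 with the atrial covariate (limma adjusted p = 0.627).

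Pgm5, a phosphoglucomutase-related protein of cell junctions rather than a known glycogen enzyme, rose to 132% of WT (log2 fold change 0.40, limma adjusted p = 7.16e-05). Further called genes of the list, named after their values were seen, were Epm2a, the glycogen phosphatase laforin, at 123% of WT, Phka1, a muscle phosphorylase kinase subunit, at 81.5%, Gaa, the lysosomal glucosidase, at 83.8%, and Ppp1r3a, the main targeting subunit of striated muscle, at 90.9%. The Ppp1r3a call, with a limma adjusted p of 0.0488, held in 7 of 20 alternatives, and with the atrial covariate its log2 fold change was -0.01 (limma adjusted p = 0.947). Gyg, glycogenin, the primer of glycogen, was at 97.2% of WT (limma adjusted p = 0.841).

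The other lists around the pathway were mixed. Of 12 tested genes of uptake and first steps, 0 were higher and 3 lower. Tbc1d4, the AS160 protein that holds back GLUT4 until insulin acts, had 717, 678, 694 and 722 normalized counts in WT and 551, 601, 622 and 562 in KO (log2 fold change -0.27, limma adjusted p = 0.00113). All KO libraries lay below all WT libraries. Slc5a1, a sodium-coupled glucose carrier, passed the limma test (adjusted p = 0.0363) at 7, 11, 8 and 4 counts in WT and 2, 3, 3 and 1 in KO, at or under about 3 reads in KO, so no fold is given. Txnip, an inhibitor of glucose uptake, was at 111% of WT with overlapping groups (limma adjusted p = 0.47).

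Of 8 other tested genes of glycolysis and gluconeogenesis, 1 was higher and 2 were lower. Tigar, which removes fructose 2,6-bisphosphate, had 234, 283, 310 and 268 normalized counts in WT and 416, 365, 354 and 341 in KO (log2 fold change 0.43, limma adjusted p = 0.000854). Fbp2, the muscle fructose bisphosphatase, had 86, 96, 110 and 98 in WT and 64, 77, 85 and 64 in KO (log2 fold change -0.43, limma adjusted p = 0.023). In Tigar and Fbp2 the KO and WT values were fully separate. Pfkfb3, the inducible form of the bifunctional enzyme, had overlapping groups (log2 fold change 0.09, limma adjusted p = 0.793).

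Of 5 tested lactate transport genes 1 was higher, Emb, the partner of the carriers, at 5 to 12 normalized counts in WT and 13 to 19 in KO (limma adjusted p = 0.0474), and 1 was lower, the carrier Slc16a7, at 69.4% of WT (limma adjusted p = 0.0291). Emb passed in 11 and Slc16a7 in 10 of 20 alternatives. Slc16a1, the main heart lactate carrier, was at 99.8% of WT and Slc16a3, the carrier of glycolytic muscle, had 6 to 12 counts in WT and 8 to 14 in KO. Neither of the 2 was called.

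Of 18 tested genes of the pentose phosphate, hexosamine and polyol branches 0 were higher and 3 lower. Sord, sorbitol dehydrogenase, was at 74.6% of WT (log2 fold change -0.42, limma adjusted p = 0.000921), Rpia, ribose phosphate isomerase, at 74.4% (log2 fold change -0.43, limma adjusted p = 0.039) and H6pd, the reticulum form of the first pentose phosphate enzyme, at 81.6% (log2 fold change -0.29, limma adjusted p = 0.00982). With the atrial covariate none of the 3 was called, and the log2 fold changes were -0.15 for Sord, -0.21 for Rpia and -0.30 for H6pd (limma adjusted p = 0.43, 0.63 and 0.126). Of 7 tested genes of the glycerol phosphate and malate-aspartate shuttles limma called 0, with 1 at an unadjusted p under 0.05 and 0 called by limma-voom.

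Of 22 tested regulators of glucose use 1 was higher and 1 lower. Irs1, an adaptor of the insulin receptor, had 600, 682, 629 and 608 normalized counts in WT and 861, 854, 830 and 766 in KO (log2 fold change 0.39, SE 0.05, limma adjusted p = 2.49e-05). Mlxipl, the glucose-sensing factor ChREBP, was at 77.8% of WT (log2 fold change -0.36, limma adjusted p = 0.0382) and passed in 11 of 20 alternatives. Over these lists together 10 of 103 tested genes were higher and 15 lower, or 24.3%, against 5.41% of the members and 7.91% of all genes. These shares are counts, and the difference between them was not tested. The lists were chosen with earlier results of these data known, so their share is not a result about the pathway.

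Several of these calls were lost when any of several libraries, from either group, was left out, while the direction stayed the same. Among the lower genes, Fbp2 lost its call without WT 2, WT 3, WT 4, KO 1 or KO 4 (limma adjusted p up to 0.0924), Gaa without WT 1, WT 2, WT 3, KO 2 or KO 4 (up to 0.0672) and Rpia without the same libraries as Gaa (up to 0.147). Ppp1r3b lost it without WT 2, KO 2 or KO 3 (limma adjusted p up to 0.0647), and Slc16a7 without any library but WT 2 and KO 1 (up to 0.128). Mlxipl kept its call without WT 2 or KO 2 alone, Slc5a1 without WT 4 and Ppp1r3a without KO 1, and the highest limma adjusted p-values were 0.137, 0.136 and 0.153. Among the higher genes, Ppp1r3d lost its call without WT 1, WT 3, WT 4, KO 2 or KO 3 (limma adjusted p up to 0.102), and Emb without WT 1, WT 2, KO 2, KO 3 or KO 4 (up to 0.149). Pdp1, Pdp2, Ppp1r3c, Pgm5, Epm2a, Tigar, Irs1, Phka1, Tbc1d4, Sord and H6pd stayed called without each library in turn. Limma without a variance trend ended the calls of all of these but Pdp2, with adjusted p = 0.05003 for Irs1 and 0.099 for Tigar.

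The genes of the atrial covariate were higher in KO 2, KO 3 and KO 4 than in the WT libraries. KO 1 lay near WT 1, WT 2 and WT 4. WT 3 stood apart, with Myl7 at 0 against 21 to 26 and Myl4 at 17 against 110 to 114 in the other WT libraries. The covariate thus partly followed genotype, and a call lost with it cannot be assigned to either. Further calls were lost with the covariate. Pgm5 moved from 0.40 to 0.26 on the log2 scale with it (limma adjusted p = 0.0549), while Epm2a stood at 0.31 and missed the threshold (limma adjusted p = 0.0745). Fbp2, Gaa, Mlxipl, Ppp1r3d, Emb, Slc5a1 and Slc16a7 also lost their calls, with limma adjusted p-values from 0.167 to 0.537. The log2 fold changes of Fbp2, Gaa, Mlxipl, Ppp1r3d and Emb stayed at -0.40, -0.26, -0.42, 0.39 and 0.97, near their values without the covariate. For Slc5a1 no fold is given, since its KO values lay at or under about 3 reads. The log2 fold change of Slc16a7 moved from -0.50 to -0.28. Pdp1, Pdp2, Pdpr, Ppp1r3c, Tigar, Irs1, Phka1 and Tbc1d4 stayed called with it. Ppp1r3c and Tigar moved to 0.79 and 0.71. Among the members that were not called, the sign of the change turned with the covariate for Slc2a1, Slc2a4, Pfkp, Eno3, Ldhb, Ldhd and Pgm1 as well as Ugp2.

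Forms of the same enzyme were compared as ratios within each library, in 10 pairs. The WT level ratios per length depended on the length used, the union of annotated exons or, chosen after seeing the data, the longest coding transcript, and are given in that order. Slc2a1 stood at 0.126 or 0.0987 of Slc2a4, Pgam1 at 0.072 or 0.0804 of Pgam2 and Eno1 at 0.0763 or 0.182 of Eno3. Pfkl stood at 0.158 or 0.243 of Pfkm and Pfkp at 0.0685 or 0.191. Ldha stood at 0.423 or 0.641 of Ldhb, Pdk1 at 0.455 or 0.485 of Pdk2 and Pygb at 0.695 or 0.764 of Pygm. The form named second was the higher by either length in each of these pairs. Removal of duplicate reads can also shift these level ratios, which was not tested. None of the 10 ratios passed the exact permutation test after adjustment over the 10, where the smallest p of the 70 splits is 0.0286.

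The ratios that came nearest were Pygb to Pygm and Pfkl to Pfkm. The log2 ratio of Pygb to Pygm was 0.07, 0.01, 0.10 and 0.03 in WT and 0.15, 0.19, 0.18 and 0.29 in KO, higher in all 4 KO libraries by a mean of 0.15 (exact permutation p = 0.0286, two-sided, adjusted 0.143). The log2 ratio of Pfkl to Pfkm was -1.71, -1.64, -1.66 and -1.66 in WT and -1.89, -1.81, -1.73 and -1.77 in KO, lower in all 4 KO libraries by a mean difference of -0.13 (exact permutation p = 0.0286, adjusted 0.143). The Hk1 to Hk2 ratio differed by 0.10 (exact permutation p = 0.0571, adjusted 0.19). The other 7 gave exact permutation p-values of 0.343 to 0.943.

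Summed over the members, glucose genes took 0.741, 0.744, 0.754 and 0.756% of the library total in WT 1 to 4 and 0.76, 0.729, 0.752 and 0.712% in KO 1 to 4. The means were 0.748 ± 0.00745% (SD, n = 4) and 0.738 ± 0.022% (SD, n = 4), so the groups overlapped and the KO libraries were spread more widely. KO 4 was the lowest KO library for 23 of 32 members with a WT mean of at least 100 (71.9%), against 29.6% of 6749 such genes. KO 1 was the highest for 18 of 32 (56.2%), against 36.8%. The 8 cardiomyocyte markers took 3.37, 3.19 and 3.38% in KO 1 to 3 and less in KO 4, which also had the highest atrial sum. Most of the cardiomyocyte sum was Ttn, with a WT mean of 71019.5 normalized counts, against 9885 for Ryr2, the next. The part of these differences in the members' spread was not tested.

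**Figure D4:**
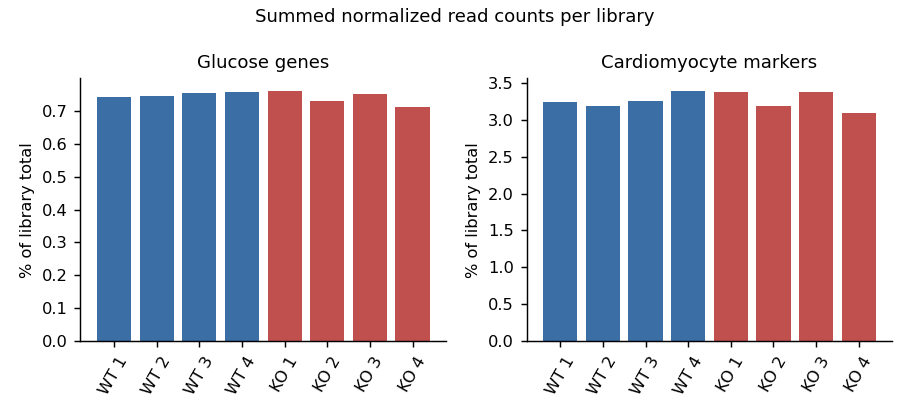
Summed normalized read counts as a percent of the library total (y axes from 0) for the 37 glucose genes (left) and 8 cardiomyocyte markers (right), one bar per WT (blue) and Mettl3 KO (red) library. KO 4 is lowest in both, at 0.712% for the glucose genes. Ttn makes up most of the marker sum.

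By WT level per kb, the same 8 members stood highest by either length. With the exon union as the length these were Eno3 (462 normalized counts per kb), Pdha1 (435), Pygm (433), Ldhb (390), Pfkm (373), Pgam2 (357), Aldoa (324) and Pygb (301). With the longest coding transcript Aldoa led at 609.6 per kb. Aldoc, Slc2a1, Pgam1 and Pfkfb1 were the 4 lowest by either length, with Slc2a1 at 22.2 or 23.9 per kb. The order between these ends shifted with the length, as for Mpc2 at 39.0 or 279.5 per kb, and neighbours were not tested. Duplicate reads had been removed, which can hold down short, abundant transcripts, and the effect on these levels was not tested. With the exon union, the cardiomyocyte markers Myl2 and Actc1 stood at 395 and 743 per kb. The 37 genes had WT means between 1.25 and 1622.5 normalized counts, and the median coefficient of variation between WT libraries was 4.0%.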

How the data were processed

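Heart RNA was sequenced in stranded single-end runs of 72 nt. As the methods and the submitters' processing notes give it, the authors trimmed with Trimmomatic 0.39, aligned with STAR 2.7.11a to mm39, removed duplicates (Picard 3.1.1) and multi-mapping, ribosomal and mitochondrial reads, assigned reads to genes with strand-aware featureCounts 2.0.4, excluding those that touch several genes, and normalized with DESeq2 1.36.0. The deposited values are a score, normalized counts rounded to whole numbers, so a count test was not the main test.

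Genes with a mean of at least 1 were tested by limma 3.58.1 (R 4.3.3) on log2(value + 1) with a variance trend and genotype as the term, two-sided, with Benjamini-Hochberg adjustment over all 20313 genes and a threshold of 0.05. Fold changes are on that scale and understate those of low genes. Reads per library, 2631904 to 3061253, were recovered from the spacing of low values, and 3 reads set the floor. The scripts were tested on simulated data. Every pair of libraries differed beyond sampling noise (chi-square per degree of freedom 1.11 or more). Isoform ratios were tested by exact permutation (scipy 1.17.1).

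The members, lists and tests were chosen with earlier results of these data known. Every member was named. Of each further list the called genes with the 4 largest changes were named, and Pdk4, Pfkfb3, Slc16a1, Slc16a3, Txnip and Gyg whatever their values. Some genes counted in these lists are not reported here by name. Exon lengths came from GENCODE on GRCm38. Alternatives were other scalings, limma-voom, no or a stricter filter, other pseudocounts, no trend, robust variance, the replicate block and each library left out. An atrial covariate (mean log2 of Myl7, Myl4, Sln and Bmp10) was chosen after seeing the data.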

Additional observations from a re-analysis of the deposited data

Results flagged for a closer look

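In 158 groups of 4 libraries searched for a value far from the others, 8 were marked, where chance marks about 7.9. The value given is the gap of the farthest library over the range of its group. Among WT libraries it was 0.853 for Pfkm (1199 against 1257 to 1267 normalized counts), 0.867 for Pgam2 (310 against 295 to 297), 0.955 for Eno1 (173 against 194 to 195), 0.933 for Pfkfb3 (67 against 81 to 82) and 0.857 for Ppp1r3b (199 against 259 to 269). Among KO libraries it was 0.889 for Dld (793 against 857 to 865). For Aldoc it was 1 in WT (2 against 1 count) and for the log2 ratio of Aldoc to Aldoa 0.868 (-8.31 against -8.94 to -8.85), which reflect a single count.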

How the results depend on the processing

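The main test called 1607 genes, with 1 member higher (Hk1) and 1 lower (Gys1). Without a variance trend 321 genes were called, with 0 members in either direction, and at an adjusted p under 0.01 751 genes, with 0 members. With the atrial covariate, chosen after seeing the data, 913 genes were called, 2 members higher (Hk1 and Hk2) and 0 lower. Members lower were 3 by voom on the values, 2 by voom on recovered reads and 2 with a mean of at least 10. Leaving out each library gave 1005 to 1593 genes, 0 to 2 members higher and 0 to 3 lower. The cause of these shifts was not tested beyond the smaller number of libraries. Same-numbered libraries did not deviate together (correlations -0.02 to 0.07, and not every library fitted its own number best), so the numbers were not taken as pairs. With the replicate block 1346 genes were called, with 1 member higher and 1 lower, and none of these counts moved by over 1.5 times. Other scalings, pseudocounts, robust variance and no filter kept both members' calls. Low genes are limited by depth, since Aldoc and Slc5a1 lay near 3 reads.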
